A study of Mus musculus with 8 samples.

Results

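The C/EBP genes described here are Cebpa, Cebpb, Cebpd, Cebpg and Cebpz, which were chosen by name and make up 5 of 29924 genes on the array. All 5 had a probe and passed the filter on dim probes, by which 15764 genes were tested. Cells came from peripheral lymph nodes (pLN) of B6.Cg-Foxp3<tm1Mal> mice of 8 to 14 weeks and mixed sex, in which the Foxp3 locus also drives EGFP, so that GFP marks Foxp3-expressing cells. All mice, including those that gave the progenitor cells, were immunized s.c. with keyhole limpet hemocyanin and alum, and cells pooled from 8 to 15 mice were sorted from the CD4+ B220- lymphocytes at d12 or d25 p.i. Naïve CD4 T cells (naïve T cells) were GFP-PD1-GL7-, TFH cells GFP-PD1hi GL7+, Treg cells GFP+PD1-GL7-, and TFR cells GFP+PD1hi GL7+/-. In comparisons of TFR with TFH cells, Foxp3 status and the GL7 gate therefore cannot be told apart. Each of these 4 cell types was hybridized on 1 one-color Agilent array per day, which gives 8 arrays and 2 per cell type. The study's methods state replicate samples for each day, of which the others were not analysed here, so that no cell type has a replicate at a given day in these results.

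Members of the C/EBP family bind DNA as dimers through a basic region and a leucine zipper (bZIP) and are best known from granulocytes and macrophages, fat cells and the liver, where C/EBP alpha and C/EBP beta direct differentiation and the acute phase response. C/EBP delta is an early inducible relative, and C/EBP gamma lacks a classical activation domain and acts through its partners, among them ATF4. In T cells C/EBP factors have been linked to the expression of Il4, which TFH cells deliver to germinal center B cells. Cebpz carries the family name for its binding to the CCAAT motif, but its product belongs to the nucleolar complex proteins that assemble the large ribosomal subunit and has no bZIP domain.

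The promoters of Cebpa and Cebpb, which rose in both follicular cell types, and of Cebpg, the neighbour of Cebpa that was not called, are shown first. These are the 3 of the 5 genes found in a RefSeq promoter table (build GRCm38.p6), and the 250 bases before the start of the gene are printed 5′ to 3′. Capitals mark every match to CCAAT, to TTGCG, the core letters of C/EBP recognition sequences, or to TGACG, the core letters of cyclic AMP response elements, each searched as written and as its reverse complement. No matches overlapped in these windows.
Cebpa, chr7:35119043-35119292, plus strand: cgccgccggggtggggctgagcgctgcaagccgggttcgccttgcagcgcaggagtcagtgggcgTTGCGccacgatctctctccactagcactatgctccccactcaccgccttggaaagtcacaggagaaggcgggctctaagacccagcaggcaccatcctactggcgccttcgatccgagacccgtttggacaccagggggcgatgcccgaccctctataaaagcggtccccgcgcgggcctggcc
Cebpb, chr2:167688665-167688914, plus strand: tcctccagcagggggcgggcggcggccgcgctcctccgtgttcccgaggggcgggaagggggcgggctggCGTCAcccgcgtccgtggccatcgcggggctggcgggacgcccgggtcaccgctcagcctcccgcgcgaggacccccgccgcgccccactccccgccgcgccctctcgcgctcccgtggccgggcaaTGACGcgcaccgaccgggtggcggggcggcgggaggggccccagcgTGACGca
Cebpg, chr7:35056567-35056816, minus strand: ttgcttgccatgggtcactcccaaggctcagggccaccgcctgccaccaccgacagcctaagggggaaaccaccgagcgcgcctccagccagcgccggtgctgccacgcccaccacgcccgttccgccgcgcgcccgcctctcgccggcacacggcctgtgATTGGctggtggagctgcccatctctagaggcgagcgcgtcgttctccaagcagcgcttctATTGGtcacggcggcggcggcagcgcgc
The Cebpa window held 1 TTGCG match, 185 to 181 bases before the start, and neither of the other motifs. The Cebpb window held 3 TGACG matches, the nearest of them 7 to 3 bases before the start, and the Cebpg window held 2 CCAAT matches on the other strand, the nearer at 28 to 24 bases. Among 32851 promoter windows of this length in the table, 33.8% held CCAAT, 14.5% TTGCG and 17.8% TGACG. The windows consisted of G and C to 66.4% in Cebpa, 81.6% in Cebpb and 70.8% in Cebpg.

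Each member was represented by 1 probe of 60 bases, spotted 4 times, so that a check by other probes was not possible. Positions are those of the files in the mouse genome build NCBI37. The Cebpa probe lies at chr7:35906517-35906576 and the Cebpg probe on the opposite strand at chr7:35835477-35835536, 71.0 kb away. Those of Cebpb and Cebpd lie at chr2:167515828-167515887 and chr16:15888459-15888518. The Cebpz probe covers chr17:79320086-79320999 and therefore spans an intron. To identify what was hybridized, the first 30 bases of each probe are given in lower case throughout, since no letter is singled out.
Cebpa: ttttgttttggttttgctctgattcttgcc
Cebpb: agaggcgtatgtatattttgagaacctttt
Cebpd: gacatttccgacagacttttgtagataaga
Cebpg: aaattaagttgctgacaaaggaattaagtg
Cebpz: tttgactttgctgggtcatttcaaggacaa
At least 3 of 4 spots were kept on every array for all 5 probes, and none was saturated. The largest standard deviation among the spots of an array was 0.32 on the log2 scale for Cebpa, 0.07 for Cebpb, 0.87 for Cebpd, 0.16 for Cebpg and 0.10 for Cebpz.

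Levels are normalized intensities in relative units (RU), with the 75th percentile of an array at 1500 and a floor of 20. Differences are on the log2 scale, estimated with limma over all 8 arrays, with day as a further term, and are followed by their standard error (±), each from 2 arrays per cell type. A gene was called if its p, adjusted by the method of Benjamini and Hochberg across the 15764 genes, was below 0.05. These p values measure the spread between arrays, to which cell type effects that vary from d12 to d25 contribute. A probe counted as well above background by the flag of the extraction software, which applied to 18261 to 19867 of 39429 probes per array. Where no array of a cell type passed this flag, a fold is given as a lower bound, with the dimmest signal that passed on an array put in place of any lower level. All d12 arrays shared 1 slide, whereas at d25 naïve T and TFH cells were on another and Treg and TFR cells on a further slide. Day therefore cannot be told apart from slide. Nor can Foxp3 status be told apart from slide at d25, which bears on TFR versus TFH and Treg versus naïve T cells.

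The sorted cells carried the markers of their labels. Foxp3 was at 37266 to 49262 RU in Treg and TFR cells and at 66 to 358 RU in the other arrays, all 5 follicular markers were called higher and all 5 markers of naïve T cells lower in both follicular cell types than in their progenitors, and the 6 CD4 T cell markers were well above background throughout. Since C/EBP genes are prominent in myeloid cells, the markers of these cells matter most here. Of 14 neutrophil, monocyte and macrophage markers, 7 passed the background flag on both arrays of every cell type, and their summed level was 119414 to 127308 RU for naïve T, 99349 to 124501 RU for TFH, 101615 to 110984 RU for Treg, and 89022 to 90776 RU in TFR cells. At d12 this sum was lower in follicular cells than in their progenitors and at d25 it was higher in TFH than in naïve T cells, but Csf3r (65638 to 104029 RU) and Itgam (13020 to 28504 RU) made up most of it, so that it does not show changes of dimmer markers. Cd14, Fcgr1, Adgre1 and Mpo were not well above background on any array, and Spi1, S100a8 and S100a9 on 1 array each. Cd68, a lysosomal protein abundant in macrophages, moved with Cebpa, from 551 and 564 RU in naïve T to 5098 and 3768 RU in TFH cells and from 368 and 394 RU in Treg to 2868 and 2333 RU in TFR cells. Lyz2, the lysozyme gene of these cells, was at 205 to 461 RU at d12, and at d25 at 352 RU in naïve T, 1248 RU in TFH, 449 RU in Treg and 1258 RU in TFR cells, with no call in TFH (0.93 ± 0.52, adjusted p = 0.199) or TFR cells (1.19 ± 0.52, adjusted p = 0.13). A part of macrophage RNA in the levels of the C/EBP genes was not tested. Of 9 markers of basophils, mast cells and eosinophils, Mcpt8, Fcer1a, Ms4a2, Gata2, Il5ra, Prg2 and Prss34 were not well above background on any array, Cpa3 was on 1, and only Kit was on all, with a summed level of 272 to 295 RU for naïve T, 360 to 657 RU for TFH, 387 to 540 RU for Treg, and 650 to 671 RU in TFR cells. The B cell markers summed up to 16754 RU on the d25 TFH array and to 5745 to 10217 RU on the others. A part of B cells in the C/EBP levels of that array was not tested.

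The members of the family fell into 3 kinds of pattern. Cebpa, Cebpb and Cebpd were higher in both follicular cell types than in their progenitors, Cebpz was lower, and Cebpg was not called in any comparison. For Cebpa and Cebpd the increase was from at or near background, for Cebpb from a level that naïve T and Treg cells already had. In bulk samples of sorted cells, fewer cells of a type and less RNA per cell cannot be told apart, which holds for every difference given here.

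**Figure D1:**
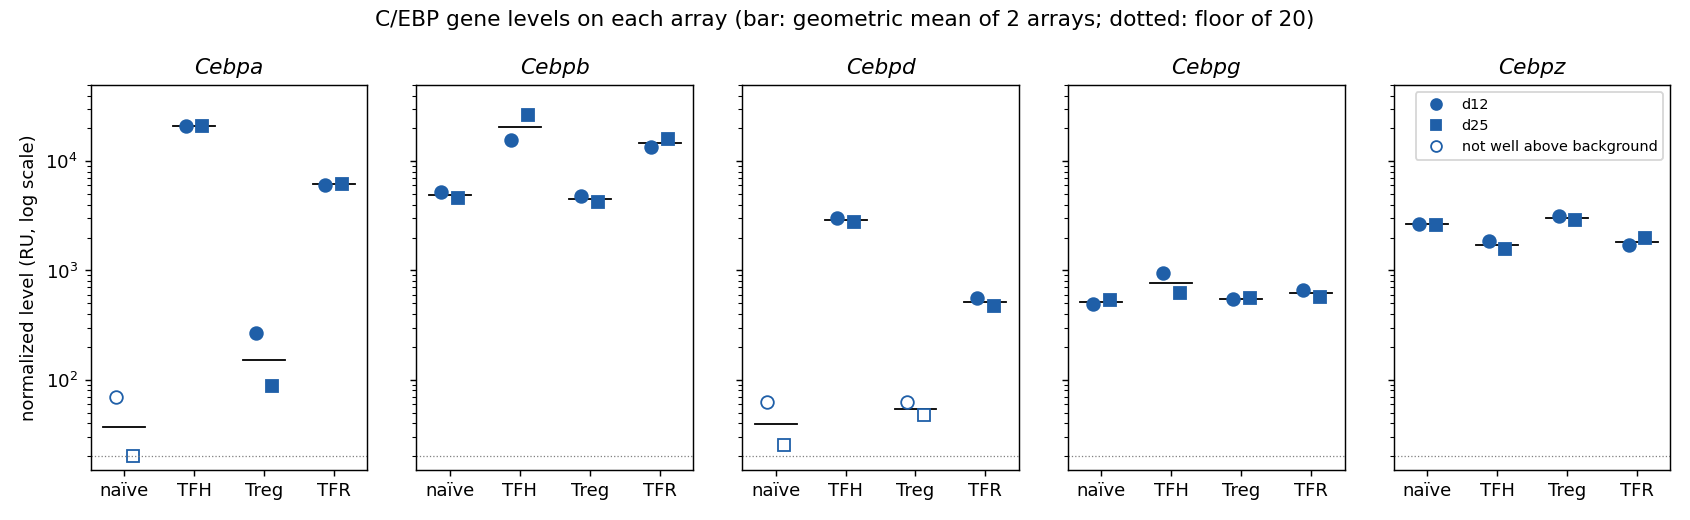
Normalized level (RU, log scale) of the 5 C/EBP genes on each of the 8 arrays, by cell type and day. Open symbols mark cell types without an array well above background and bars the geometric mean of 2 arrays. Cebpa reached 20922 and 21151 RU in TFH cells and 6017 and 6242 RU in TFR cells, while Cebpg lay between 490 and 941 RU on all arrays.

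Cebpa encodes C/EBP alpha, the factor required for granulocyte development and fat cell maturation. Its level was 69 and 20 RU in naïve T cells at d12 and d25, 21151 and 20922 RU for TFH, 266 and 88 RU for Treg, and 6017 and 6242 RU in TFR cells. No groups overlapped, both arrays of naïve T cells were not well above background, and the days lay 0.02 apart on the log2 scale in TFH and 0.05 in TFR cells. TFH cells differed from naïve T cells by 9.14 ± 0.55 (adjusted p = 0.000465), which as a bound is at least 358-fold. TFR cells differed from Treg cells by 5.32 ± 0.55 (adjusted p = 0.00325), or 40.1-fold, with differences of 4.50 at d12 and 6.15 at d25. With normexp background correction both were smaller, at 6.81 (adjusted p = 1.37e-05), below the bound, and 4.34 (adjusted p = 0.000118). The change between the days of this difference came from Treg cells, where the level at d25 was lower by 1.59 on the log2 scale than at d12. TFR cells had 28.3% of the TFH level at d12 and 29.9% at d25. This difference of -1.78 ± 0.55 was not called (adjusted p = 0.0839) with the spread shared by all cell types, although both TFR arrays lay below both TFH arrays. It was called under normexp background correction (-1.73, adjusted p = 0.00314) and with an intensity trend in eBayes (-1.78, adjusted p = 0.046).

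Cebpb encodes C/EBP beta, which mediates signals of IL-6 and other inflammatory cytokines. The d12 and d25 arrays gave 5209 and 4650 RU for naïve T, 15713 and 26720 RU for TFH, 4818 and 4273 RU for Treg, and 13445 and 15869 RU for TFR cells. Both follicular cell types lay above both progenitors on every array, but TFH and TFR cells overlapped, as did naïve T and Treg cells. The difference was 2.06 ± 0.26 (adjusted p = 0.00354), or 4.16-fold, between TFH and naïve T cells and 1.69 ± 0.26 (adjusted p = 0.00857), or 3.22-fold, between TFR and Treg cells. In TFH cells the d25 array exceeded the d12 array by 0.77 on the log2 scale, in TFR cells by 0.24, while both progenitors were lower at d25. The call in TFR cells was lost without either TFR array or without the d25 Treg array (estimates 1.46 to 1.73). It was also lost without a filter on dim probes (1.69, adjusted p = 0.0563 in limma).

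Cebpd encodes C/EBP delta, an immediate responder to cytokines that acts together with C/EBP beta in fat cell formation. The level was 62 and 25 RU for naïve T, 3030 and 2792 RU for TFH, 63 and 47 RU for Treg, and 563 and 475 RU in TFR cells. TFH cells were highest and TFR cells next, with no overlap, whereas neither progenitor was well above background on any array. TFH cells exceeded naïve T cells by 6.22 ± 0.31 (adjusted p = 0.000292), at least 49.8-fold, and TFR cells exceeded Treg cells by 3.24 ± 0.31 (adjusted p = 0.00272), at least 9.31-fold. These bounds hold for the processing used here, since normexp background correction gave smaller differences of 3.93 (adjusted p = 6.3e-06) and 1.62 (adjusted p = 0.000137), below both bounds. Cebpd was the only member called between the follicular cell types, with -2.49 ± 0.31 (adjusted p = 0.008) in TFR versus TFH cells, a 5.63-fold lower level. TFR cells had 18.7% of the TFH level at d12 and 17.0% at d25. Without the d12 or the d25 TFR array the call was lost (-2.31, adjusted p = 0.0782, and -2.68, adjusted p = 0.0564).

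Cebpg, the gene of C/EBP gamma, was at 490 and 541 RU for naïve T, 941 and 623 RU for TFH, 547 and 554 RU for Treg, and 669 and 573 RU in TFR cells. The d12 TFH array was the highest, while the d25 TFH array lay between both TFR arrays. The difference between TFH and naïve T cells was 0.57 ± 0.20 (adjusted p = 0.0671), with an unadjusted 95% interval of 0.06 to 1.08, and amounted to 0.94 at d12 and 0.20 at d25. Without the d25 TFH array it was called (0.86, adjusted p = 0.0229), as it was without quantile normalization (0.61, adjusted p = 0.0494) and with normexp background correction (0.48, adjusted p = 0.0384). Between TFR and Treg cells it was 0.17 ± 0.20 (adjusted p = 0.529), with an interval of -0.34 to 0.68, which leaves room for a change in either direction.

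Cebpz, whose product works in the nucleolus, had 2688 and 2589 RU for naïve T, 1862 and 1558 RU for TFH, 3143 and 2922 RU for Treg, and 1707 and 1963 RU in TFR cells. Every follicular array was below every progenitor array, and TFH and TFR cells overlapped. Cebpz fell by 0.63 on the log2 scale (SE 0.13, adjusted p = 0.0161) from naïve T to TFH cells, 1.55-fold, and fell by 0.73 (SE 0.13, adjusted p = 0.0132), 1.66-fold, from Treg to TFR cells. The first call was lost without either array of naïve T cells or without the d25 TFH array (estimates -0.63 to -0.50). The other was lost without either Treg array or without the d12 TFR array (-0.76 to -0.56). Without a filter on dim probes both calls were lost (adjusted p = 0.0618 and 0.0563 in limma).

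**Figure D2:**
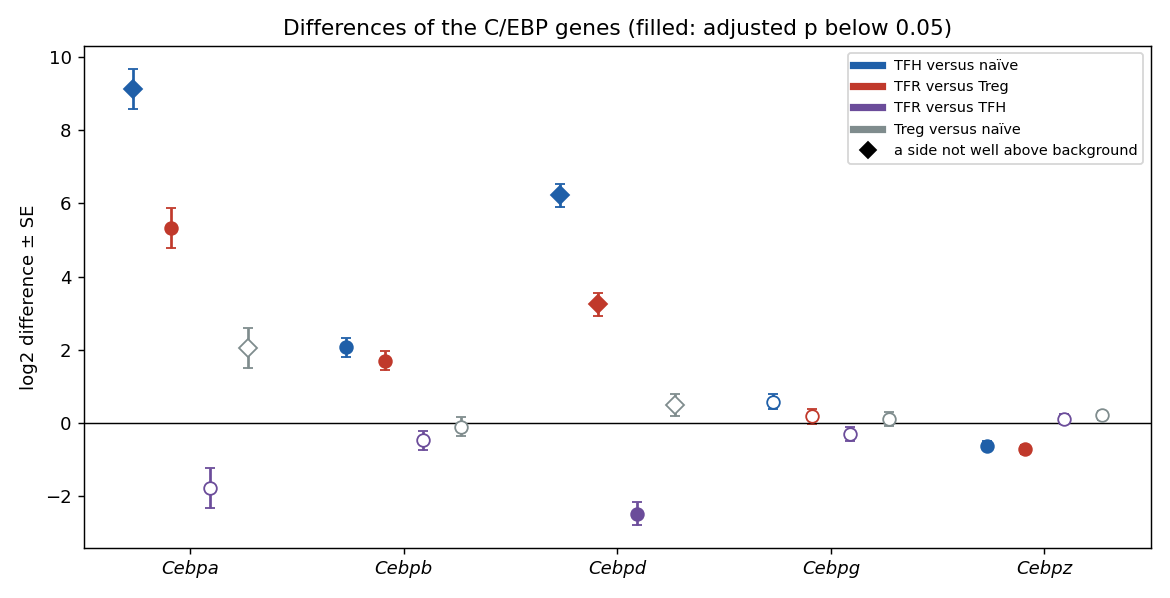
Log2 difference of each C/EBP gene in 4 comparisons, with its standard error, from 2 arrays per cell type. Filled symbols have an adjusted p below 0.05, and diamonds mark comparisons in which a cell type was not well above background. The differences from progenitor to follicular cells are above 0 for Cebpa, Cebpb and Cebpd in both lineages and below 0 for Cebpz.

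By count, 3 of the 5 members were called higher in TFH than in naïve T cells and 1 lower, against a background of 20.9% higher and 25.6% lower among all genes. The same 4 genes were called, in the same directions, in TFR versus Treg cells, where the shares over all genes were 18.7% higher and 20.9% lower. In TFR versus TFH cells 1 member was called lower and none higher, compared to 10.5% and 11.6% of all genes. Calls were thus frequent in these comparisons, and the number of members called is too small to be read against them. The median difference over all genes was -0.07 in TFH and -0.08 in TFR cells. No member was called between Treg and naïve T cells, where 5.89% of all genes were higher and 3.98% lower. None had an unadjusted p below 0.05 there but Cebpa, for which the estimate of 2.04 ± 0.55 (adjusted p = 0.0922) compares Treg cells with cells below background. The intensity trend made it a call (adjusted p = 0.0496).

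Whether the follicular change differed between lineages was tested as the change from Treg to TFR minus the change from naïve T to TFH cells. TFH cells were sorted as GL7+ and TFR cells as GL7+/-, so that lineage and GL7 gate cannot be told apart in this difference. This difference was called for 8.49% of all genes. It was called for Cebpd alone (-2.98 ± 0.44, adjusted p = 0.0246). This value rests in part on levels of naïve T and Treg cells below background, of which TFR versus TFH cells, both measured, contributed -2.49. The call was lost with slide in place of day (adjusted p = 0.0574), without a filter on dim probes (adjusted p = 0.131) and without any single TFH, Treg or TFR array (adjusted p = 0.0526 to 0.128). For Cebpa the difference of -3.82 ± 0.78 was not called (adjusted p = 0.054), nor were those of Cebpb (-0.37 ± 0.36, 95% interval -1.31 to 0.57), Cebpg (-0.40 ± 0.28, -1.12 to 0.32) and Cebpz (-0.10 ± 0.19, -0.57 to 0.38). Between d25 and d12 no member was called (adjusted p = 0.195 to 0.716) and none had an unadjusted p below 0.05, while 0.0698% of all genes were called.

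Across the 8 arrays, the log2 levels of Cebpa, Cebpb and Cebpd ran in parallel, with a Pearson r of 0.95 between Cebpa and Cebpb, 0.97 between Cebpa and Cebpd, and 0.95 between Cebpb and Cebpd. Cebpz ran against them, with r between -0.95 and -0.87. These values describe 4 cell types measured on 2 days each and carry the contrast of follicular and progenitor cells. Compared gene by gene, profiles were ranked by the root mean square difference of log2 levels centered on their mean. Most like that of Cebpa were those of Krt83 (0.89), Serpinf1 (0.98) and Rasl11a (1.02), with a Pearson r of 0.977, 0.985 and 0.986. The distance is not scaled to the range of a gene, and Cebpa varied most among the members (standard deviation of its cell type means 4.32). Closest to Cebpb were Pfn2 (0.16), Sh2d1a (0.17), the gene of the SLAM-associated adaptor SAP, and Tubg2 (0.18). For Cebpd they were Metrnl (0.37), Coro2b (0.46) and Gpr153 (0.50), for Cebpg Zfp944 (0.05), Tma7 (0.08) and Ptpn1 (0.09), and for Cebpz Kctd10 (0.09), Ccdc85b (0.09) and an unnamed transcript (0.10). The levels of Cebpg and Cebpz themselves varied little.

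The surroundings of the members were read from the probe positions of the files. Within 250 kb of the Cebpa probe, 7 genes had a probe and 6 were tested, and of these, 1 was called in TFR versus Treg cells, Slc7a10. In that comparison 18.7% of all genes were higher and 20.9% lower. Slc7a10, which encodes the neutral amino acid exchanger Asc-1, lies 79.4 kb from the Cebpa probe. It was listed at the floor of 20 RU on both arrays of naïve T cells and was at 1543 and 2364 RU for TFH, 206 and 157 RU for Treg, and 6154 and 6671 RU in TFR cells. Like Cebpa it was higher in both follicular cell types, but their order was opposite, since TFR cells exceeded TFH cells (1.75 ± 0.24, adjusted p = 0.0106). From Treg to TFR cells Slc7a10 rose by 5.16 ± 0.24 (adjusted p = 0.000572). On the other side of Cebpa, Cebpg (-71.0 kb) and Pepd (-76.9 kb), a dipeptidase gene, differed little, with 0.17 and 0.15 in TFR versus Treg cells, neither called. In TFH versus naïve T cells, 4 of the 6 were called, where 20.9% of all genes were higher and 25.6% lower. Slc7a10 and Lrp3, a receptor gene at 79.8 kb that was listed at the floor in naïve T cells and reached 135 and 161 RU in TFH cells (2.88 ± 0.30, adjusted p = 0.00214), were higher. Pepd (-0.42 ± 0.08, adjusted p = 0.0152) and Gm35665 (-0.72 ± 0.14, adjusted p = 0.0123) were lower.

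**Figure D3:**
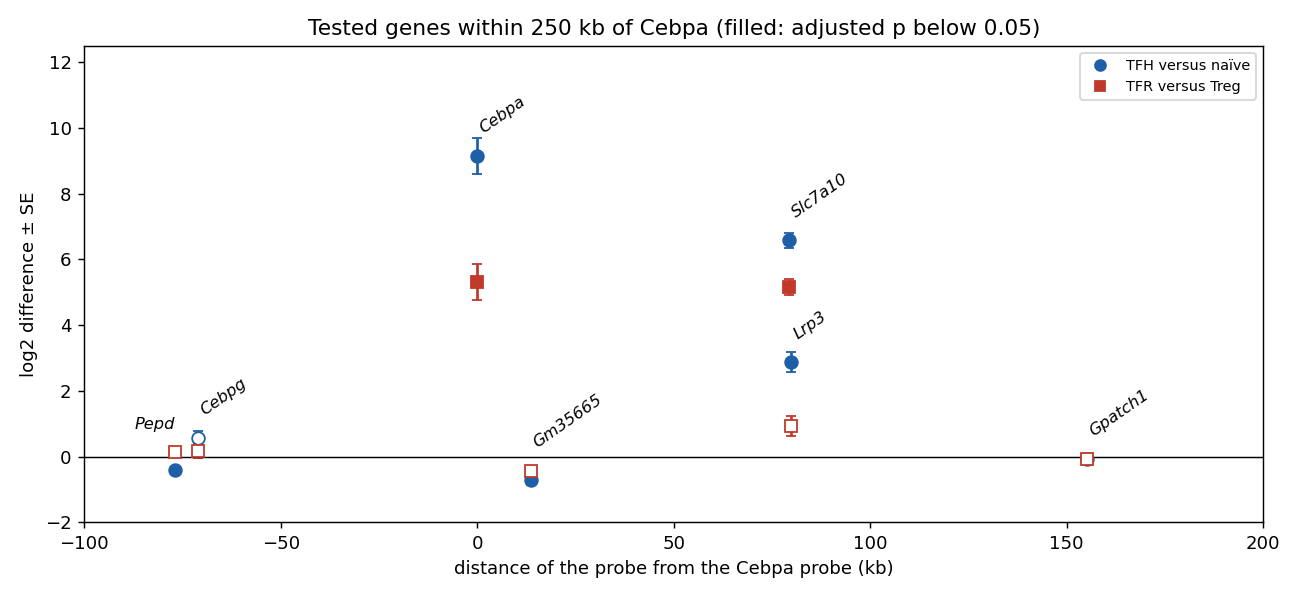
Log2 difference with standard error for Cebpa and the 6 tested genes within 250 kb, by the distance of their probe from the Cebpa probe in kb. Circles are TFH versus naïve T cells, squares TFR versus Treg cells, and filled symbols have an adjusted p below 0.05. Cebpa and Slc7a10 stand out with 5.32 and 5.16 in TFR versus Treg cells.

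Around Cebpb, 7 of 10 genes were tested, and 1 was called higher and 2 lower in TFR versus Treg cells. For these and the neighbours of Cebpd, the shares over all genes were 18.7% higher and 20.9% lower. In TFR versus Treg cells Ube2v1 was higher by 0.55 ± 0.10 (adjusted p = 0.012), and Tmem189 (-0.61 ± 0.13, adjusted p = 0.021) and Rnf114 (-0.47 ± 0.09, adjusted p = 0.0175) were lower. Of 4 genes around Cebpd, 3 were tested, and Mzt2 was higher by 0.41 ± 0.11 (adjusted p = 0.0383). Around Cebpz, 8 of 10 genes were tested and 4 were called, 2 higher and 2 lower, against 18.7% and 20.9% of all genes. Cebpzos, whose probe lies only 0.9 kb from that of Cebpz and which is transcribed from the opposite strand, was at 6255 and 6320 RU for naïve T, 10653 and 9107 RU for TFH, 5830 and 5842 RU for Treg, and 8991 and 10055 RU in TFR cells. It thus moved opposite to Cebpz, with 0.65 ± 0.12 (adjusted p = 0.0108) in TFH and 0.70 ± 0.12 (adjusted p = 0.0108) in TFR cells, and no array of a follicular cell type overlapped with a progenitor. Prkd3, a protein kinase D gene, was lower by -2.31 ± 0.09 (adjusted p = 0.00048) and Qpct, which was not well above background in TFR cells, by -2.05 ± 0.49 (adjusted p = 0.0292), while Eif2ak2, the gene of the RNA-activated kinase PKR, was higher by 0.96 ± 0.26 (adjusted p = 0.0389).

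Among 12 relatives and bZIP partners of the family, 9 were tested. In TFH versus naïve T cells 4 were called higher and 2 lower (median difference -0.14). In TFR versus Treg cells likewise 4 were higher and 2 lower (median 0.16). For this list and those below, the shares over all genes were 20.9% higher and 25.6% lower in TFH, and 18.7% and 20.9% in TFR cells. Cebpe, the granulocyte member of the family, was at the floor of 20 RU on all 8 arrays. Ddit3 (CHOP), a stress-induced relative that can block C/EBP dimers, fell by 0.73 (SE 0.09, adjusted p = 0.00378) in TFH and by 0.55 (SE 0.09, adjusted p = 0.0113) in TFR cells. The largest changes were those of Maf, an activator of Il4 and Il21, with 5.14 ± 0.25 (adjusted p = 0.000276) in TFH and 2.08 ± 0.25 (adjusted p = 0.00456) in TFR cells, and of Nfil3, with 4.28 ± 0.27 (adjusted p = 0.000509) and 3.1 ± 0.27 (adjusted p = 0.00213). Batf rose by 2.12 ± 0.11 and 2.11 ± 0.11 (adjusted p = 0.000305 and 0.000674), and the circadian factor gene Dbp changed by -1.15 ± 0.17 and -0.61 ± 0.17 (adjusted p = 0.0059 and 0.0433). Atf4, the partner of C/EBP gamma, was not called (-0.33 and -0.30).

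All 16 genes that act upstream of C/EBP genes or on their proteins were tested, with 4 called higher and 4 lower in TFH (median -0.29) and 3 higher and 6 lower in TFR cells (median -0.36). The Tribbles genes encode pseudokinases, of which TRIB1 and TRIB2 direct C/EBP alpha to degradation, and they moved apart. Trib1 rose by 4.58 ± 0.21 (adjusted p = 0.000251) in TFH and was also called in TFR cells (adjusted p = 0.00799), with 2991 and 3181 RU compared to 1337 and 996 RU in Treg cells. Cebpa rose in the same comparisons, whereas Trib2 changed by -1.25 ± 0.12 and -1.94 ± 0.12 (adjusted p = 0.00177 and 0.00108) and Trib3 by -1.37 ± 0.21 and -1.48 ± 0.21 (adjusted p = 0.00619 and 0.00666). Il4ra, the receptor chain for IL-4, showed the largest decrease, with -4.45 ± 0.29 (adjusted p = 0.000584) and -2.30 ± 0.29 (adjusted p = 0.0053).

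Of 13 genes listed for Il4 and its regulators, 12 were tested, with 8 higher and 1 lower in TFH (median 1.84) and 7 higher and 1 lower in TFR cells (median 1.5). Il4 was at 843 and 451 RU for naïve T, 68122 and 74904 RU for TFH, 547 and 210 RU for Treg, and 12567 and 12554 RU in TFR cells. It was highest in TFH and next in TFR cells, the order of Cebpa and Cebpd, with no overlap between follicular and progenitor cells. Il4 rose by 6.86 ± 0.41 (adjusted p = 0.000452) and 5.21 ± 0.41 (adjusted p = 0.00172) and was lower in TFR than in TFH cells (-2.51, adjusted p = 0.0165). These are RNA levels, whereas by intracellular staining the paper found almost no IL4 in Foxp3-expressing cells of pLN. Il21 rose by 6.85 ± 0.27 (adjusted p = 0.000188) in TFH and by 6.59 ± 0.27 (adjusted p = 0.00048) in TFR cells, in the latter from a level not well above background, while Il10 was called in TFR cells (3.54 ± 1.04, adjusted p = 0.0498) and not in TFH cells (2.49 ± 1.04, adjusted p = 0.108). The difference between these Il10 changes was not called (1.05 ± 1.47, adjusted p = 0.714).

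Of 22 genes that depend on C/EBP factors in myeloid cells, 10 passed the filter and were tested, compared to 15764 of 29924 genes on the array. Of the 10, 4 were higher and 3 lower in TFH cells (median 0.38) and 1 higher and 1 lower in TFR cells (median -0.25). Csf2ra, a chain of the GM-CSF receptor, rose in both (0.94 ± 0.18, adjusted p = 0.0133, and 1.38 ± 0.18, adjusted p = 0.00582), and Nos2, the inducible nitric oxide synthase gene, was lower in both (-1.66 ± 0.19, adjusted p = 0.00264, and -1.05 ± 0.19, adjusted p = 0.0129). Tnf (2.11 ± 0.11, adjusted p = 0.000293) and Gfi1 (2.03 ± 0.12, adjusted p = 0.000426) were called in TFH cells, and had 0.08 and -0.30 in TFR cells. Of 12 C/EBP-dependent genes of fat and liver, 6 were tested and 3 were higher in each follicular cell type, with none lower (median 0.76 and 0.43). Pparg, the nuclear receptor that acts with C/EBP alpha in fat cells, reached 433 and 556 RU in TFR compared to at most 109 RU in Treg cells (2.19 ± 0.16, adjusted p = 0.00143), but 177 and 197 RU in TFH compared to 142 and 121 RU in naïve T cells (0.51 ± 0.16, adjusted p = 0.052). Cpt1a, the entry enzyme of mitochondrial fatty acid oxidation, rose in TFH cells (1.01 ± 0.10, adjusted p = 0.00201) and had 0.05 in TFR cells. Adipoq was called in both. In TFH cells it rose by 1.52 ± 0.21 (adjusted p = 0.0049), from naïve T cells not well above background. In TFR cells it rose by 0.80 ± 0.21 (adjusted p = 0.0386), from a low level of 190 and 102 RU in Treg cells.

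Stress response genes of ATF4 and C/EBP gamma did not move as a group from progenitor to follicular cells. Of 15 tested, 5 were higher and 4 lower in TFH (median -0.32) and 5 higher and 1 lower in TFR cells (median -0.03). Asns, the asparagine synthetase gene, rose by 2.97 ± 0.20 (adjusted p = 0.000621) and 2.41 ± 0.20 (adjusted p = 0.00195), and Psat1 of the serine synthesis pathway by 1.31 ± 0.13 (adjusted p = 0.0016) and 1.63 ± 0.13 (adjusted p = 0.00162). Trib3, which also belongs to this list, was lower in both as given above. Slc7a5, a gene of the transporter for large neutral amino acids, was lower in TFH cells (-0.99 ± 0.21, adjusted p = 0.0162). Between the follicular cell types the list was one-sided, with 8 of 15 called higher in TFR than in TFH cells and none lower (median 0.45). Of all genes 11.6% were higher and 10.5% lower in that comparison.

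Of 18 ribosome assembly genes, the company of Cebpz by function, all were tested, with 15 called lower and none higher in TFH cells (median -0.60), and 8 lower, none higher and 10 not called in TFR cells (median -0.33), where 25.6% and 20.9% of all genes were lower. Nop14 changed by -1.23 ± 0.21 (adjusted p = 0.00875) in TFH and -1.14 ± 0.21 (adjusted p = 0.0136) in TFR cells, and Npm1, the nucleophosmin gene, by -1.0 ± 0.12 (adjusted p = 0.00321) and -0.44 ± 0.12 (adjusted p = 0.0435). Fbl, the gene of fibrillarin, was lower in TFH cells (-0.97 ± 0.13, adjusted p = 0.00426) and not called in TFR cells (-0.40 ± 0.13, adjusted p = 0.0641), and Nop56 was lower in both (-0.90 ± 0.08, adjusted p = 0.00127, and -0.35 ± 0.08, adjusted p = 0.0254). Noc2l, a gene of the same nucleolar complex family as Cebpz, was lower in TFH cells (-0.51 ± 0.15, adjusted p = 0.0447) and not called in TFR cells (-0.31 ± 0.15, adjusted p = 0.156).

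**Figure D4:**
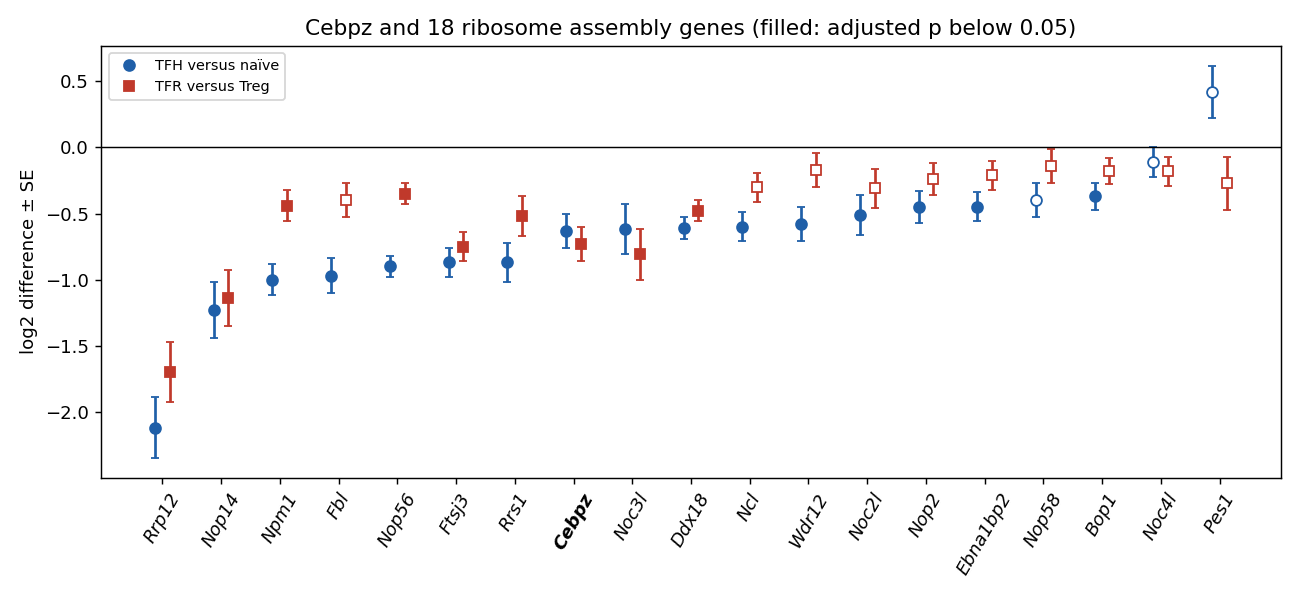
Log2 difference with standard error of Cebpz and 18 ribosome assembly genes, ordered by the TFH versus naïve T cell difference. Circles are TFH versus naïve T cells, squares TFR versus Treg cells, and filled symbols have an adjusted p below 0.05. Cebpz lies within the range of the list at -0.63 and -0.73, and Pes1 is the only gene above 0 in TFH cells, where it was not called.

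**Figure D5:**
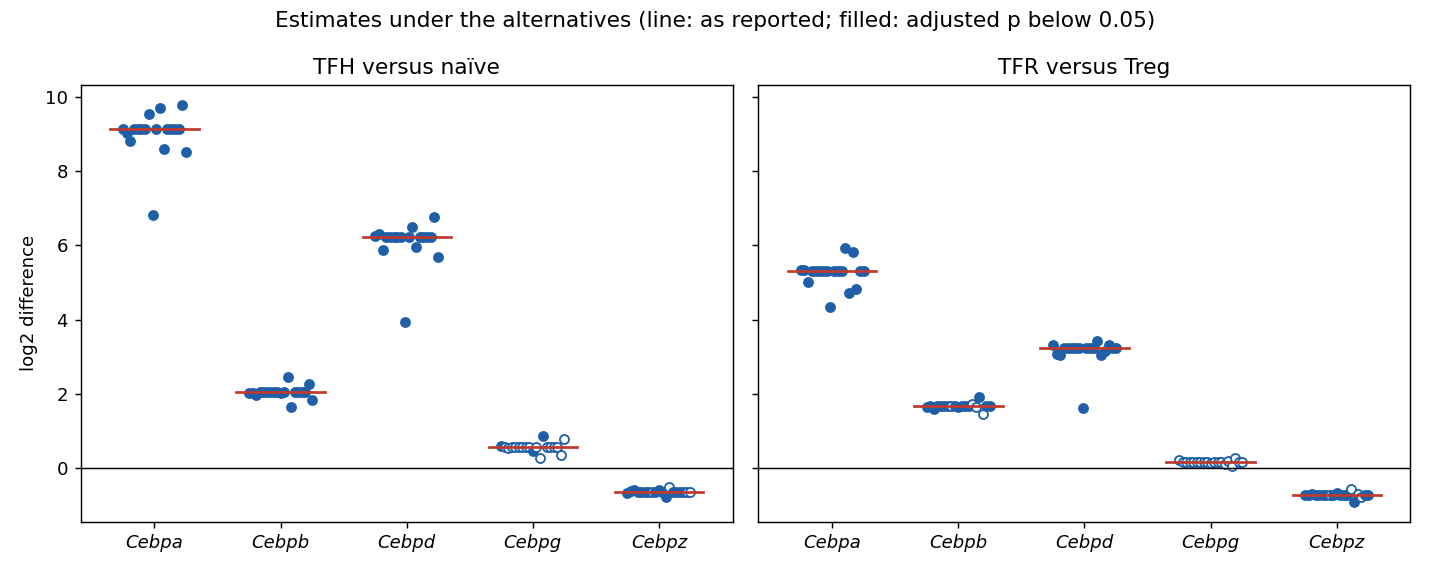
Log2 difference of the C/EBP genes under the alternatives to the processing, for TFH versus naïve T cells and TFR versus Treg cells. Lines are the values given in the text and filled points have an adjusted p below 0.05. Cebpa stayed between 6.81 and 9.78 in TFH and between 4.34 and 5.92 in TFR cells, and all points of Cebpz lie below 0. Alternatives in the filter, probe choice, model terms or eBayes trend, and without an array of the other lineage, could not move these estimates. Their points show changes of the adjusted p only.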

How the data were processed

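Arrays were scanned by the authors and extracted with Agilent Feature Extraction 10.7.3.1, and the background-corrected spot intensities as well as a table of normalized intensities were deposited by the authors. The authors' steps were repeated from the spots. Flagged spots, those outside 1.42 times the interquartile range of the 4 copies, and those with a pixel coefficient of variation above 0.5 were excluded (86.45% to 89.18% were kept). Spots were averaged geometrically, quantile normalized, scaled to a 75th percentile of 1500, floored at 20 and log2 transformed, and the result correlated with the deposited table (Pearson r = 0.9994 on each array). A gene was its probe with the highest mean, tested if some cell type had it well above background on all its arrays. Limma 3.58.1 in R 4.3.3 was used with cell type and day as terms, which leaves 3 residual degrees of freedom, with a prior of 1.89. The study's methods name one-way ANOVA on further samples per day, which were not analysed here. The number of arrays limits the precision. The code was tested on simulated data.

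Members and lists were chosen with earlier results of these data known. All 5 members were named. From each list at most 4 genes were named, those with the largest difference among called genes well above background on both sides, plus Il4, Ddit3, Cebpe and Noc2l. Neighbours within 250 kb were named if called in TFR versus Treg cells, and 3 genes per member as most alike. Other genes (Atf4, Pepd, Lrp3, Gm35665 and the cell type markers) were named after their values were seen. Gene names are those of the files. The 19 alternatives covered normalization, background correction, spot exclusion, floor, filter, probe choice, model terms and each array in turn.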

Additional observations from a re-analysis of the deposited data

Results flagged for a closer look

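The change of Cebpd from Treg to TFR cells was smaller than that from naïve T to TFH cells by a tested difference of -2.98 on the log2 scale (adjusted p = 0.0246 in limma). Both progenitor cell types were below background for Cebpd, and the contribution of their unmeasured levels to this difference was not tested. Neither was that of the GL7 gate, which differed between TFH and TFR cells.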

How the results depend on the processing

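No direction of a called difference of a member was reversed under any of the 19 alternatives that gave a value. Alternatives in the filter, probe choice or eBayes trend could not reverse one, since they leave the estimates of these members, with 1 probe each, unchanged. Some differences that were not called changed sign, without becoming calls. With slide in place of day, Cebpb in Treg versus naïve T cells became 0.02 (from -0.12). When each array was left out in turn, sign changes lay within ranges of -0.07 to 0.27 for Cebpz in TFR versus TFH cells; of -0.34 to 0.11 for Cebpb, -0.05 to 1.02 for Cebpd and -0.11 to 0.30 for Cebpg in Treg versus naïve T cells; of -0.77 to 0.03 for Cebpb and -0.27 to 0.07 for Cebpz in the difference between the lineages; and of -0.03 to 0.28 for Cebpb and -0.14 to 0.01 for Cebpz in d25 versus d12. In TFH versus naïve T cells 4 members were called, and 4 in TFR versus Treg cells. Of these, 2 each were left when only genes well above background on all arrays were tested, since this removes Cebpa and Cebpd from the fit. Without a filter on dim probes, 3 were left in TFH versus naïve T cells and 2 in TFR versus Treg cells. In TFR versus TFH cells the count of 1 became 2 with normexp background correction and with an intensity trend in eBayes, and 0 with genes well above background on all arrays and without a filter on dim probes. In Treg versus naïve T cells the intensity trend gave 1 in place of 0. For the difference between the lineages, the count of 1 became 2 with scaling to the 75th percentile without quantile normalization, with normexp and with the intensity trend, and 0 with genes well above background on all arrays, without a filter on dim probes and with slide in place of day. When each array was left out in turn, counts ranged from 3 to 4 in TFH versus naïve T, from 2 to 4 in TFR versus Treg, from 0 to 1 in TFR versus TFH cells and from 0 to 1 for the difference between the lineages, and the remaining array of that cell type was assumed to vary like the others. Normexp moved the sizes of Cebpa and Cebpd most, to 6.81 and 4.34 for Cebpa and to 3.93 and 1.62 for Cebpd in TFH and TFR cells. Levels near background limit what can be said of Cebpa and Cebpd in the progenitors. No paired analysis was possible because the replicate number is the day, which the model already holds as a term.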
